A study of Homo sapiens with 6 samples.

Results

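The 38 genes described here encode RNA polymerase I, its transcription factors and the nucleolar proteins that process ribosomal RNA and assemble both ribosomal subunits. They were chosen by name, as the rows of the gene table whose symbol stood on a list of such genes, and make up 38 of the 35993 genes in the table. RNA was sequenced from MIA PaCa-2, an established human pancreatic carcinoma cell line, with 3 libraries left untreated and 3 prepared after exposure to 4 µM rhCYGB over 48 h. rhCYGB is a His-tagged recombinant form of human cytoglobin, a heme globin, made in E. coli. Both groups were kept in 24-well plates in DMEM with 1% FBS, and no vehicle or control protein is named for the untreated cells. All libraries come from a single cell line, and the labels do not say whether the replicates were separate cultures, so the p-values measure the spread between these libraries, which may be technical.

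RNA polymerase I makes a single long precursor RNA from the ribosomal DNA repeats. UBTF and the SL1 complex mark the promoter and RRN3 brings the polymerase to it. The precursor is then modified at sites chosen by small nucleolar RNAs (snoRNAs), cut by a large particle called the small subunit processome, and built with ribosomal proteins into subunits that leave the nucleus. These genes tend to be strongly expressed in growing tumor cells.

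The libraries held between 34838399 and 42271299 counts on genes, and 14728 genes passed the filter on low counts, all 38 among them. Of the genes that mark this line, KRT8, KRT18, KRT19, VIM and ZEB1 were detected in every library, while CDKN2A, which this line lacks, and EPCAM had 0 counts in each. CDH1 had 2 counts in a single library. Of 12 markers of other cell types, 5 (LUM, PTPRC, PECAM1, PRSS1 and CPA1) were at 0 in every library. The counts of these 12 genes summed to between 6228 and 7572 in the untreated libraries and between 3044 and 3268 in the rhCYGB libraries, mostly CDH5 and CD68. CDH5, an endothelial cadherin, had 4438 to 5428 counts untreated and 390 to 465 treated, while CD68 was higher in the treated libraries. Their part in the results below was not tested.

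Most of the 38 genes were expressed at a higher level in the rhCYGB-treated cells. At an adjusted p under 0.05 in edgeR's quasi-likelihood test, 27 rose, 7 fell and 4 (FBL, NOP56, NCL and MYBBP1A) did not pass. Across all genes tested, 77.6% passed, 39.0% rose and 38.6% fell, so the share that rose was above the background and the share that fell below it. The median log2 fold change of the 38 genes was 0.38, against -0.0046 for all genes tested, and single values ran from -0.82 (NHP2) to 2.14 (TAF1D). Changes of 2-fold or more were found in 5 genes, all of them higher (TAF1D, NOB1, RRP9, DDX21 and BYSL), where 12.4% of all genes tested rose and 14.7% fell by that much. The untreated and rhCYGB libraries did not overlap in 35 of the 38 genes, as in 79.5% of all genes tested. Together, the 38 genes took 0.847 to 0.853% of all counts in the untreated libraries and 0.969 to 0.978% in the rhCYGB libraries. In bulk RNA, fewer cells that express a gene and less RNA of it per cell cannot be told apart.

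**Figure D1:**
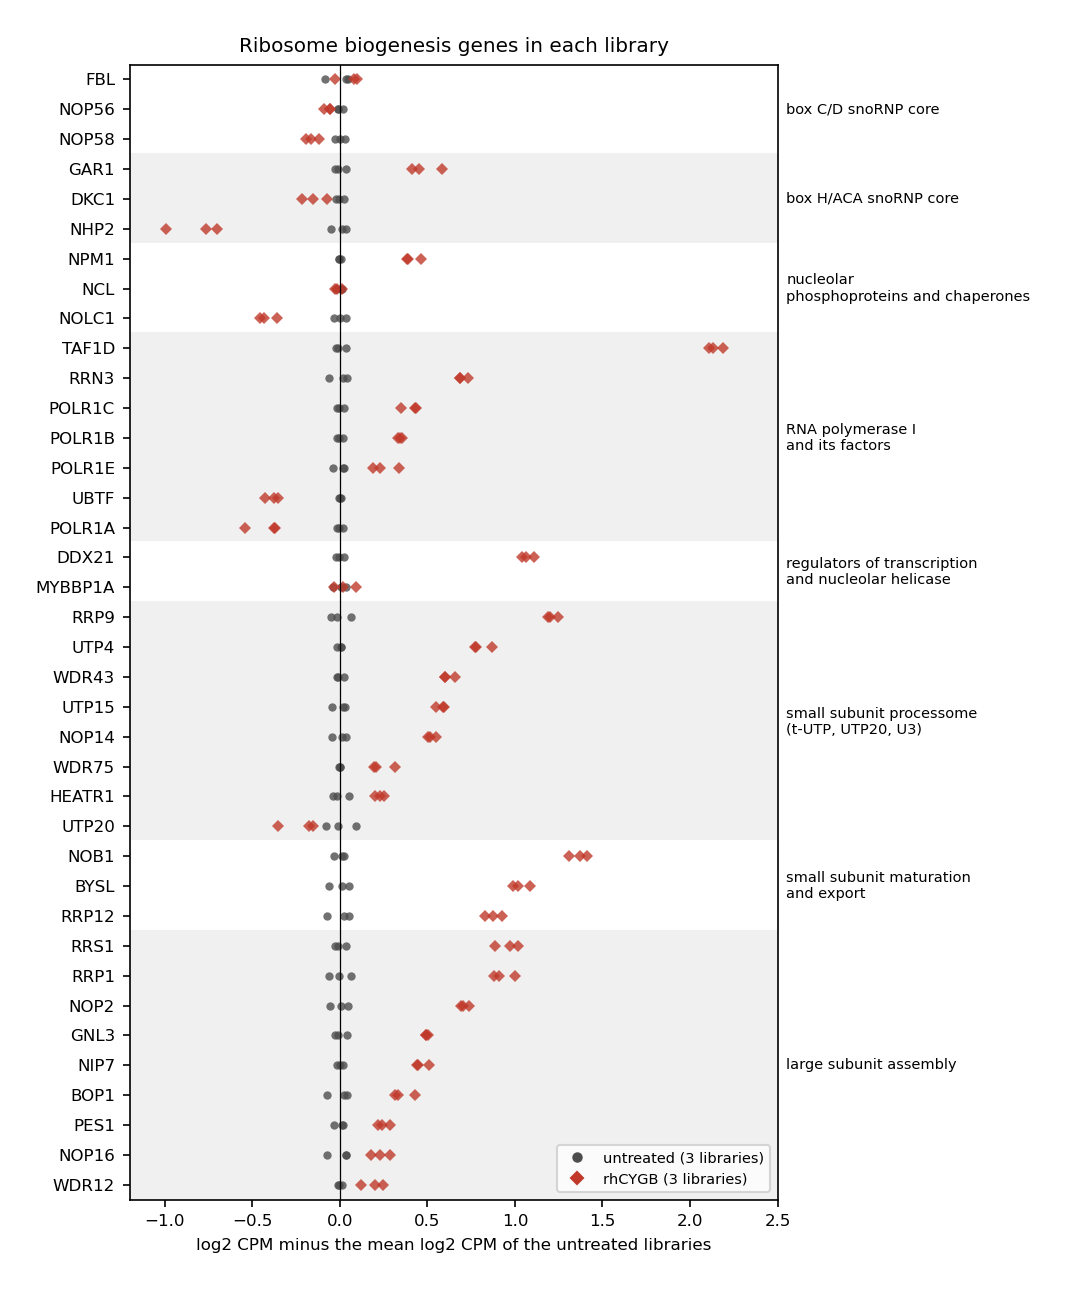
Each row is a gene, grouped by role, and each point is a library (grey circles untreated, red diamonds rhCYGB), placed by its log2 CPM minus the mean log2 CPM of the 3 untreated libraries. The rhCYGB libraries lie to the right of the untreated ones in most rows, furthest for TAF1D, and to the left for NHP2, POLR1A, NOLC1 and UBTF.

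The values below are CPM, that is, counts relative to the library size after scaling by TMM, a trimmed mean of the log ratios between libraries. The scaling matters for the small differences. When libraries were scaled by their total counts instead of by TMM factors, the median of all genes tested moved by -0.16 (log2). That of the 38 genes moved to 0.22. Scaling factors shift all genes nearly alike, so the gap of 0.39 between these medians could hardly change and is no check of the result. With limma, another test, the gap was 0.31 on log2(FPKM + 1) and 0.34 on log2(FPKM + 0.1). Under total counts 21 of the 38 rose and 11 fell, where 31.8% of all genes tested rose and 45.7% fell.

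The genes of RNA polymerase I and its factors moved in both directions. Of these 7, 5 rose and 2 fell, where 39.0% of all genes tested rose and 38.6% fell. The median log2 fold change was 0.34. Under total counts 4 of the 7 rose and 2 fell, with a median of 0.18, where 31.8% of all genes tested rose and 45.7% fell. TAF1D, a subunit of the promoter selectivity complex SL1, changed most of all 38 genes. It stood at 70.3, 67.5 and 68.0 CPM in the untreated libraries and at 312, 296 and 300.0 CPM in the rhCYGB libraries. The groups lay far apart, with a 4.41-fold rise and a log2 fold change of 2.14 ± 0.04 (SE, n = 3 per group, as in all fits below), adjusted p = 1.0e-15 in edgeR's quasi-likelihood test. TAF1D lies at chr11:93463360-93474703 in the deposited table, whose genome build is not named there, and overlaps CEP295 on the same chromosome. CEP295 had 672 to 790 counts per library in untreated and 337 to 383 in rhCYGB-treated cells, against 2620 to 3023 and 9856 to 11592 for TAF1D. The neighbour had fewer counts and moved the other way, and sharing of reads between the 2 genes was not tested.

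RRN3, the factor that recruits the polymerase to its promoter, stood at 81.8, 86.5 and 87.6 CPM untreated and at 141, 137 and 137 CPM with rhCYGB. All 3 treated libraries were above all untreated ones (log2 fold change 0.70 ± 0.04 SE, edgeR adjusted p = 2.9e-10). RRN3 has 3 listed pseudogene copies whose counts came to 8.87% of its own in untreated and 11% in treated cells, and it overlaps PDXDC1, so reads may have been split between them.

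POLR1A, the largest subunit, fell. It had 119, 120.1 and 122 CPM in the untreated libraries and 82.9, 92.8 and 93.0 CPM in the rhCYGB libraries. The untreated libraries were close together and all higher (log2 fold change -0.43 ± 0.05 SE, edgeR adjusted p = 5.9e-07). POLR1B, the second-largest subunit, which forms the catalytic centre with POLR1A, went the other way, from 73.1, 71.6 and 72.2 CPM to 92.7, 91.1 and 91.7 CPM. Its groups did not overlap (log2 fold change 0.34 ± 0.04 SE, edgeR adjusted p = 9.7e-07). The mRNAs of these partner subunits thus changed in opposite directions, each past the test.

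POLR1C, a subunit shared with RNA polymerase III, stood at 36.5, 35.5 and 35.7 CPM untreated and 45.8, 48.5 and 48.3 CPM treated. It rose by a log2 of 0.41 ± 0.05 (SE, n = 3), adjusted p = 1.8e-06 by edgeR, and it overlaps XPO5, whose counts were 426% of its own in untreated and 384% in treated cells. POLR1E, a subunit that contacts UBTF, stood at 40.3, 38.8 and 40.5 CPM untreated and 50.4, 45.5 and 46.6 CPM treated. Its rise was small (log2 fold change 0.25 ± 0.05 SE, edgeR adjusted p = 4.0e-04) and did not pass the test under total counts. UBTF, the factor that binds along the ribosomal DNA and keeps it open, fell from 110.3, 111 and 111 CPM to 86.9, 82.5 and 85.3 CPM. The untreated libraries of UBTF differed by about 1 CPM, and all 3 treated libraries were lower (log2 fold change -0.38 ± 0.04 SE, edgeR adjusted p = 2.6e-07).

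Of the 14 remaining genes of the polymerase, SL1 and termination, which are outside the 38, 6 (42.9%) rose and 5 (35.7%) fell, shares near the 39.0% and 38.6% of all genes tested. POLR2H, a small subunit shared by all nuclear RNA polymerases, rose by a log2 of 1.48 ± 0.04 (SE), from 69.8 ± 0.170 to 194 ± 7.41 CPM (SD, n = 3). TAF1A, another SL1 subunit, rose by 1.27 ± 0.07 on the log2 scale, and POLR1D, the partner of POLR1C in the assembly platform of the enzyme, by 1.03 ± 0.04. POLR1H (0.76), POLR1G (0.44) and POLR1F (0.35), which are specific to RNA polymerase I and are listed in the table as ZNRD1, CD3EAP and TWISTNB, also rose on the log2 scale.

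Of these 5 falls, 4 were in subunits shared by all nuclear RNA polymerases. POLR2L fell from 103 ± 5.79 to 40.4 ± 3.04 CPM (SD, n = 3), a log2 fold change of -1.35 ± 0.06 (SE). POLR2F (-0.58), POLR2K (-0.28) and POLR2E (-0.27) fell less on the log2 scale, as did TTF1 (-0.29), which ends transcription of the ribosomal DNA. TAF1B (0.15), TAF1C (0.08) and TBP (0.02) did not pass edgeR's test. The median of the 14 genes, 0.11, turned to -0.05 under total counts, as the values of all genes moved down. It stood 0.12 above the median of all genes tested under either scaling, a gap that scaling factors hardly change. With limma the gap was 0.05 on log2(FPKM + 1) and 0.07 on log2(FPKM + 0.1).

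**Figure D2:**
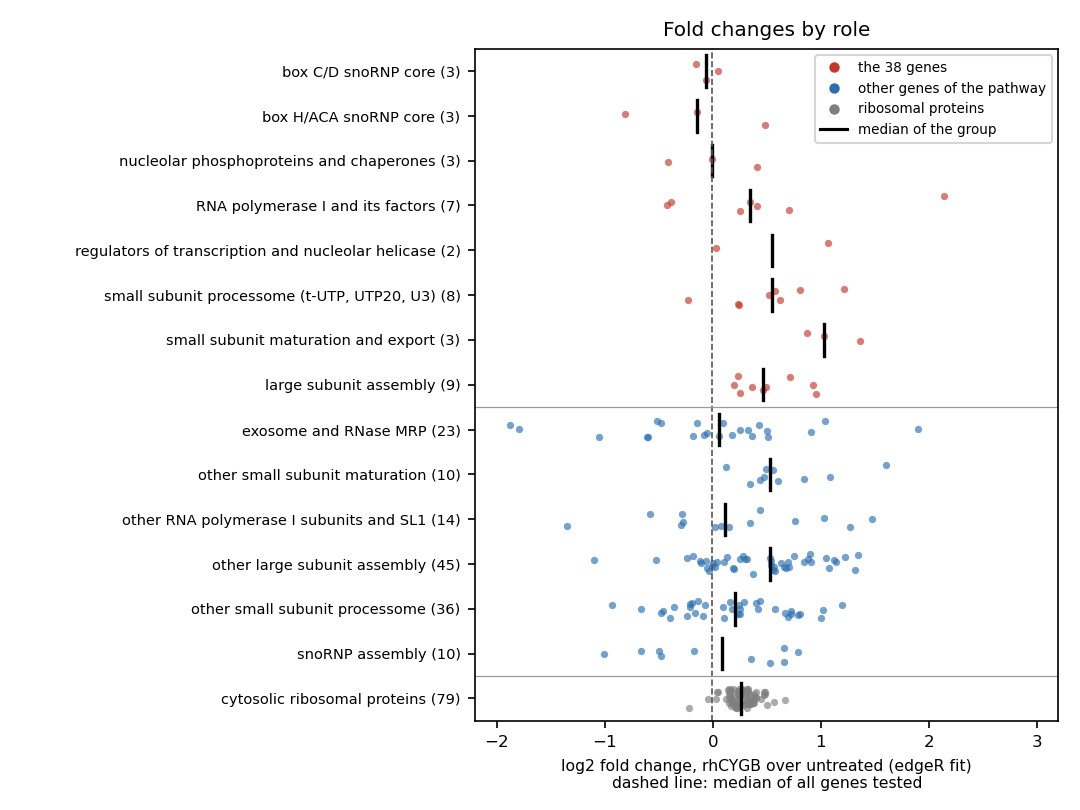
Each point is a gene, placed by its fitted log2 fold change of rhCYGB over untreated; red points are the 38 genes, blue points other genes of the pathway, grey points cytosolic ribosomal proteins, black bars group medians and the dashed line the median of all genes tested (-0.0046). Genes of small subunit maturation and large subunit assembly sit mostly to the right, while the snoRNP core proteins apart from GAR1 lie around or below 0, and the medians of the other RNA polymerase I, snoRNP assembly and exosome groups turn negative under total counts.

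DDX21 and MYBBP1A act around transcription of the ribosomal DNA. DDX21, an RNA helicase of the nucleolus, stood at 356, 350.1 and 363 CPM in untreated and 743, 733 and 768 CPM in treated cells. It rose 2.1-fold with no overlap of the groups (log2 fold change 1.07 ± 0.03 SE, edgeR adjusted p = 4.1e-13). MYBBP1A, a nucleolar protein that represses RNA polymerase I, had a log2 fold change of 0.03 ± 0.04 (SE, n = 3), adjusted p = 0.565 by edgeR, and under total counts it turned to a fall of -0.14 that passed.

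The core proteins of the snoRNPs, the particles that modify ribosomal RNA, did not follow the majority. Box C/D particles carry the methyltransferase FBL with NOP56 and NOP58, and box H/ACA particles carry the pseudouridine synthase DKC1 with NHP2 and GAR1. Of these 6 genes, only GAR1 rose, 3 fell and 2 did not pass.

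FBL stood at 174, 173 and 158 CPM in untreated and 178, 179.8 and 165 CPM in treated cells. The groups overlapped (log2 fold change 0.05 ± 0.05 SE, edgeR adjusted p = 0.316), and under total counts the value turned to a small fall of -0.11 that passed the test. NOP58 stood at 142, 139 and 145 CPM untreated and 124, 131 and 127 CPM treated. This fall was small but the groups did not overlap (log2 fold change -0.16 ± 0.04 SE, edgeR adjusted p = 0.00131). DKC1 had 210.0, 217 and 212 CPM in the untreated libraries and 192, 184 and 202 CPM in the rhCYGB libraries, again without overlap (log2 fold change -0.15 ± 0.04 SE, edgeR adjusted p = 0.00418).

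NHP2 had the largest fall of the 38 genes. It stood at 140.3, 138 and 132 CPM untreated and 84.0, 80.5 and 68.7 CPM treated. The treated libraries were spread more widely than the untreated ones but all were lower, by 1.76-fold in the fit (log2 fold change -0.82 ± 0.06 SE, edgeR adjusted p = 5.5e-09). NHP2 lies at chr5:177576464-177580961 in the deposited table and overlaps RMND5B, whose counts were 35.9% of those of NHP2 in untreated and 60.7% in treated cells. RMND5B itself did not gain counts, with 1896, 2189 and 1952 in untreated and 1663, 1617 and 1775 in treated libraries. GAR1, the smallest count among the 38, moved up, from 17.8, 17.1 and 17.3 CPM to 23.8, 23.1 and 26.1 CPM. Its groups did not overlap (log2 fold change 0.48 ± 0.06 SE, edgeR adjusted p = 6.0e-06).

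NOP56 did not pass the main test under TMM as a gene, while its transcripts did. The gene stood at 281, 276 and 275 CPM in untreated and 267, 260.1 and 267 CPM in treated cells. The treated libraries were slightly lower without overlap, and the difference did not pass under TMM (log2 fold change -0.07 ± 0.03 SE, edgeR adjusted p = 0.0849). It passed as a fall with DESeq2's size factors or Wald test (both -0.08), upper-quartile factors (-0.21) and total counts (-0.23). With limma on either FPKM scale it passed as well (-0.20). Of the counts assigned to NOP56, the noncoding transcript variants 2 and 3 took 42.9, 45.1 and 40.9% in the untreated libraries but 18.2, 17.8 and 18.5% in the rhCYGB libraries. No treated library came near the untreated ones, and the exact permutation test gave p = 0.1 (two-sided), the smallest that 3 against 3 libraries allow. At the transcript level, the coding variant 1 rose by a log2 of 0.37 ± 0.03 (SE) and the noncoding variant 2 fell by 1.40 ± 0.03 (SE), with adjusted p = 8.6e-04 and 1.1e-05 in edgeR's test over all transcripts. Shares of transcripts did not overlap between the groups in 32 of 81 transcripts of the 25 genes with several tested transcripts, and 28.8% of all such transcripts in the table did the same. A difference of 10 percentage points or more without overlap was found in 7 of the 81, in NOP56, NOP14, WDR12 and DKC1, against 13.5% of all, so such shifts were not more frequent among these genes than in the table as a whole.

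NOP56 is one of the host genes of snoRNAs, and SNORD86, a box C/D snoRNA, lies in an intron that some NOP56 transcripts keep in part. NOP56 and the other core proteins can bind this stretch, and splicing past it is known to depend on that binding. Any part of this in the shift of shares was not tested. Noncoding variant 2 is 180 bases longer than variant 1 in the deposited table, which is also the length by which an exon is extended in the GENCODE annotation (release 29, GRCh38), from chr20:2655934-2656034 to end at 2656214 on the + strand. Noncoding variant 3, which also fell, is 116 bases longer than variant 1, so this length match covers variant 2 only. The extension, chr20:2656035-2656214, is shown because its length equals the difference between the rising variant 1 and the falling variant 2. The 86 bases of SNORD86 are in capitals.
NOP56 exon extension: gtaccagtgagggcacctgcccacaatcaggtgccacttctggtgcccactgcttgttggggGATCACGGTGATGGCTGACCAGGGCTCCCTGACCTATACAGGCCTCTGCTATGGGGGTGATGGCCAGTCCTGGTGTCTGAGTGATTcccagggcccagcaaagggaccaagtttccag
The SNORD86 row itself had 1 count in each of the 6 libraries. The library kit selects mRNA, and short RNAs are not its target. Transcript counts are estimates that the assembler split among variants sharing most exons.

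**Figure D3:**
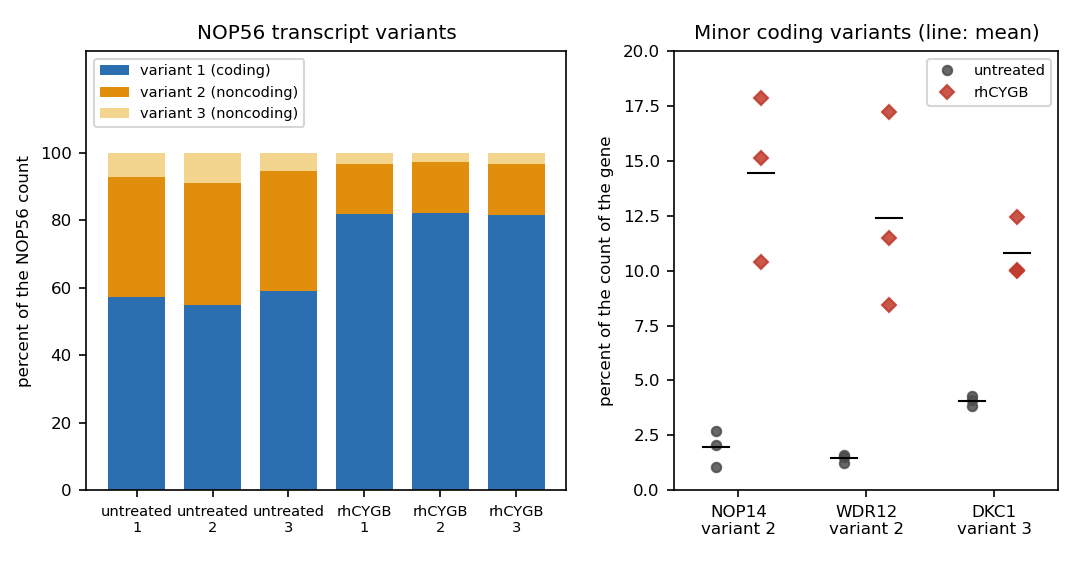
Left, bars give the percent of the NOP56 count assigned to each of its 3 transcript variants in each library, with the noncoding variants at 40.9 to 45.1% in untreated and 17.8 to 18.5% in rhCYGB libraries. Right, points give the percent of the count of the gene assigned to a minor coding variant of NOP14, WDR12 and DKC1 in each library (grey circles untreated, red diamonds rhCYGB), with no overlap between the groups.

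Minor coding variants of 3 other genes also gained share. Variant 2 of NOP14 held 2.08, 2.68 and 1.07% of the NOP14 count in untreated and 15.1, 10.4 and 17.9% in treated cells. Variant 2 of WDR12 went from 1.52, 1.24 and 1.62% to 11.5, 8.43 and 17.2%. Variant 3 of DKC1 went from 4.28, 3.82 and 4.11% to 9.97, 10.0 and 12.4%. In each, the treated libraries were all above the untreated ones, with p = 0.1 in the exact permutation test, its smallest value here. For TAF1D, the noncoding variants took 80.1, 78.2 and 84.3% untreated and 78.7, 76.0 and 79.3% treated, with overlap, and the coding variant and both noncoding variants rose. In all, 94 transcripts of the 38 genes were tested, of which 35 rose and 12 fell, against 15.1% and 14.8% of all transcripts tested. The transcript fit was centred lower than the gene fit. In the 12 genes with a single transcript, the log2 of the transcript minus that of the gene had a median of -0.08. The falls therefore include the single transcript of NCL (-0.09, edgeR adjusted p = 0.0325), which did not pass as a gene.

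Of the 3 nucleolar phosphoproteins, 1 rose, 1 fell and 1 did not pass, where 39.0% of all genes tested rose and 38.6% fell. NPM1, a histone and ribosome chaperone that is exported with the subunits, had by far the highest level of the 38 genes (1625 FPKM in untreated cells). It stood at 2616, 2590.3 and 2589.8 CPM untreated and 3579.9, 3400.1 and 3386 CPM treated. It rose 1.33-fold with no overlap (log2 fold change 0.41 ± 0.03 SE, edgeR adjusted p = 3.8e-09). Its 49 listed pseudogene copies held counts equal to 1.88% of its own in untreated and 1.91% in treated cells.

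NCL, the nucleolin that binds the precursor RNA, stood at 1377, 1349 and 1382 CPM untreated and 1356, 1379.6 and 1342 CPM treated. The groups overlapped (log2 fold change -0.01 ± 0.03 SE, edgeR adjusted p = 0.752), although the value passed as a fall, at -0.18, under total counts. NOLC1, a chaperone that carries snoRNPs between the nucleolus and Cajal bodies, stood at 279, 272 and 285 CPM untreated and 203, 217 and 206 CPM treated. All treated libraries of NOLC1 were lower (log2 fold change -0.42 ± 0.04 SE, edgeR adjusted p = 8.7e-08).

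**Figure D4:**
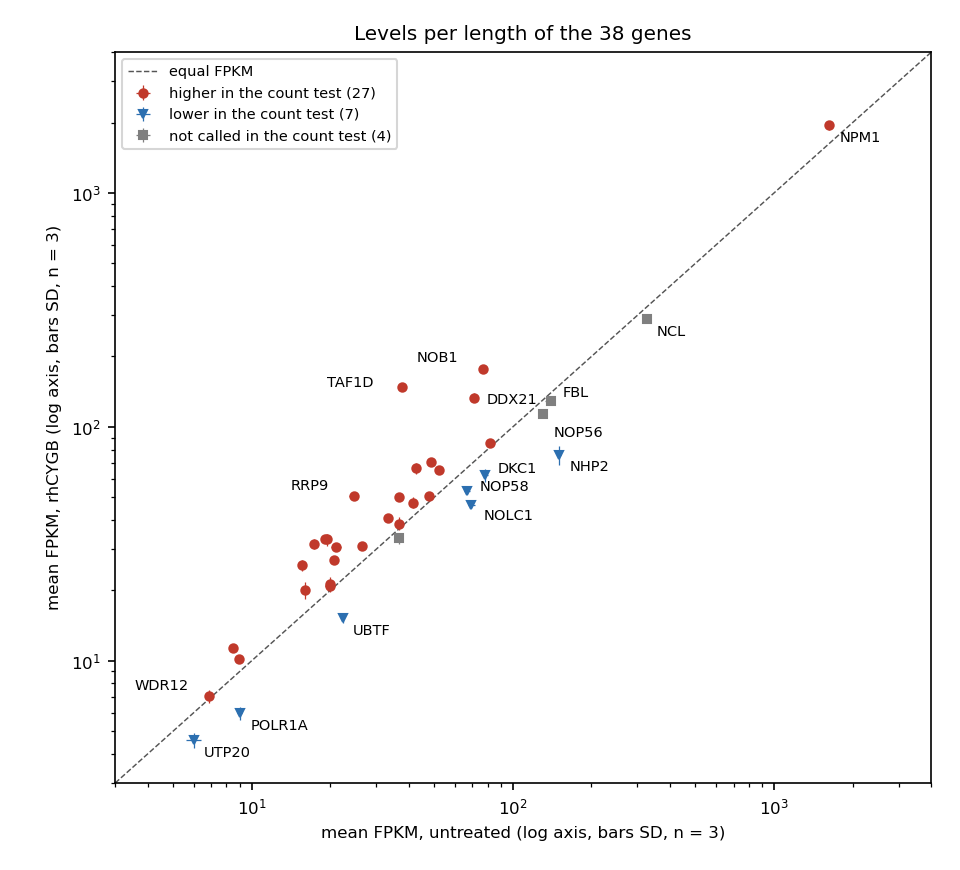
Each point is one of the 38 genes, with its mean FPKM (per transcript length and mapped reads) in untreated cells on the x axis and in rhCYGB-treated cells on the y axis, both log axes, with SD bars over 3 libraries. NPM1 stands at the top right, UTP20 at the bottom left, and TAF1D, NOB1 and RRP9 lie furthest above the line of equal FPKM.

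Per length, the 38 genes spanned a wide range in untreated cells, from 6.0 FPKM for UTP20 to 1625 FPKM for NPM1. NCL (325 FPKM), NHP2 (150.1 FPKM), FBL (139 FPKM) and NOP56 (130.4 FPKM) came next, and POLR1A, POLR1B, UTP15, WDR12 and UTP20 were under 10 FPKM. The median of the 38 was 36.6 FPKM, against 5.45 for all genes tested and 943 for the 79 cytosolic ribosomal proteins.

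Of the 8 small subunit processome genes, 7 rose and 1 fell, where 39.0% of all genes tested rose and 38.6% fell. Their median log2 fold change was 0.55. Under total counts 5 of the 8 rose and 1 fell, with a median of 0.38, where 31.8% of all genes tested rose. RRP9, a protein of the U3 snoRNP that guides the first cuts in the precursor, stood at 40.2, 42.4 and 39.2 CPM untreated and 92.5, 93.3 and 96.3 CPM treated. It rose 2.32-fold with no overlap (log2 fold change 1.21 ± 0.05 SE, edgeR adjusted p = 2.2e-12). The t-UTP subcomplex, which joins the precursor while it is being transcribed, had UTP4 (0.81), WDR43 (0.62), UTP15 (0.58), WDR75 (0.24) and HEATR1 (0.23) higher on the log2 scale, although WDR75 and HEATR1 did not pass under total counts. NOP14, a scaffold of the processome, rose by 0.52 on the same scale.

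UTP20, a very large processome protein, was the exception. It stood at 54.9, 57.6 and 61.9 CPM untreated and 45.5, 52.2 and 51.4 CPM treated. The treated libraries lay below the untreated ones by a narrow margin (log2 fold change -0.23 ± 0.06 SE, edgeR adjusted p = 0.00306). Of the 36 other processome genes, 20 (55.6%) rose and 12 (33.3%) fell, against 39.0% and 38.6% of all genes tested, with a median of 0.21. Under total counts 14 rose and 14 fell, with a median of 0.04, where 31.8% of all genes tested rose and 45.7% fell. The median of these 36 genes stood 0.21 above that of all genes under either scaling, a gap that scaling factors hardly change. With limma the gap was 0.14 on log2(FPKM + 1) and 0.16 on log2(FPKM + 0.1).

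The genes of late small subunit maturation all rose. NOB1, the endonuclease that makes the final cut in the small subunit RNA, stood at 143, 138 and 144 CPM untreated and 377, 366 and 352 CPM treated. It rose 2.57-fold with the groups far apart (log2 fold change 1.36 ± 0.04 SE, edgeR adjusted p = 9.2e-14). BYSL, the protein bystin of small subunit precursors, had 32.2, 33.1 and 30.6 CPM untreated and 67.8, 63.3 and 64.7 CPM treated. It was 2.04-fold higher (log2 fold change 1.03 ± 0.05 SE, edgeR adjusted p = 4.6e-11). RRP12, an export factor for the subunits, rose by a log2 of 0.88 ± 0.04 (SE). All 10 further genes of this step rose as well, with a median of 0.53, where 39.0% of all genes tested rose. Under total counts 9 of them rose and 0 fell, with a median of 0.36, where 31.8% of all genes tested rose. Among the 10, RIOK3, a kinase bound to the small subunit, rose from 61.4 ± 0.194 to 187 ± 12 CPM (SD, n = 3), a log2 of 1.61 ± 0.05 (SE).

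All 9 genes of large subunit assembly rose, with a median log2 fold change of 0.47, where 39.0% of all genes tested rose. Under total counts 6 of the 9 rose and 0 fell, with a median of 0.30, where 31.8% of all genes tested rose. RRS1, which helps to bring in the ribosomal RNA of the central protuberance, rose by 0.96 ± 0.05 (SE) on the log2 scale, and RRP1 by 0.93 ± 0.05 (SE). NOP2, a methyltransferase of the large subunit RNA, rose by 0.71, GNL3, the nucleolar GTPase nucleostemin, by 0.49, and NIP7 by 0.47 on that scale.

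The genes of the 3 proteins of the PeBoW complex, which processes the precursor of the large subunit RNA, rose by small amounts, as did NOP16. BOP1 had a log2 fold change of 0.36 ± 0.05 (SE), PES1 of 0.25 ± 0.04 and WDR12 of 0.19 ± 0.05, and NOP16 of 0.23 ± 0.05. PES1, WDR12 and NOP16 did not pass under total counts. At the transcript level, the main coding variant 1 did not pass edgeR's test in WDR12 (log2 -0.06, adjusted p = 0.441) or PES1 (0.12, adjusted p = 0.0871). The single transcript of BOP1 passed (0.28, adjusted p = 0.00867). In the 45 further genes of large subunit assembly, 31 (68.9%) rose and 4 (8.9%) fell, against 39.0% and 38.6% of all genes tested, with a median of 0.53. Under total counts 27 rose and 12 fell, where 31.8% of all genes tested rose and 45.7% fell. The median of these 45 genes stood 0.54 above that of all genes under either scaling, a gap that scaling factors hardly change. With limma the gap was 0.39 on log2(FPKM + 1) and 0.48 on log2(FPKM + 0.1). PPAN, a factor of early large subunit particles, rose by 1.34 ± 0.07 (SE) on the log2 scale, from 32.7 ± 1.62 to 82.8 ± 9.30 CPM (SD, n = 3), and is also part of a read-through gene listed separately, so its count depends on how reads were split. GNL2, a GTPase of the same pathway, rose by 1.31 ± 0.04 (SE) on the log2 scale. EBNA1BP2, a nucleolar factor of large subunit precursors, fell from 244 ± 6.26 to 114 ± 5.89 CPM (SD, n = 3).

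Of 23 genes of the RNA exosome and RNase MRP, which trim and cut RNA, 10 (43.5%) rose and 9 (39.1%) fell, again near the shares over all genes tested (39.0% and 38.6%). RPP40, a subunit of RNase P and RNase MRP, rose from 15.5 ± 0.681 to 57.8 ± 1.94 CPM (SD, n = 3), a log2 of 1.90 ± 0.06 (SE). POP1, the scaffold of the same enzymes, fell from 21.7 ± 0.561 to 5.88 ± 0.542 CPM (SD, n = 3), a log2 of -1.88 ± 0.09 (SE), and POP5 fell as well, with a log2 fold change of -1.79 ± 0.10 (SE). MPHOSPH6, an exosome cofactor for precursor RNA, fell from 30.0 ± 0.766 to 14.5 ± 0.818 CPM (SD, n = 3). Of the 10 snoRNP assembly genes, 5 (50%) rose and 5 (50%) fell, against the same 39.0% and 38.6% of all genes tested.

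Across the 138 pathway genes outside the 38, 82 (59.4%) rose and 35 (25.4%) fell, against 39.0% and 38.6% of all genes tested, with a median log2 fold change of 0.26. Under total counts 69 rose and 48 fell, where 31.8% and 45.7% of all genes did so. Of the 79 cytosolic ribosomal protein genes, 74 rose and 1 (RPL6) fell under TMM, with a median of 0.26, but 40 rose and 5 fell under total counts, with a median of 0.10.

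Gene overlap bears on some of these counts. In the positions of the deposited table, 20 of the 38 genes overlap another listed gene, and 8 (GNL3, HEATR1, NHP2, NIP7, NOP16, POLR1C, RRN3 and TAF1D) overlap a gene other than a snoRNA whose count reached 20% of their own in a group. Without these 8, 20 of the other 30 genes rose and 6 fell under TMM, where 39.0% of all genes tested rose and 38.6% fell. The median of the 30 was 0.35, against -0.0046 for all genes tested. The library kit keeps strand, but the strand setting of the counting is not given in the sources used here.

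The 38 genes hold more snoRNA genes than most. SnoRNA genes lay inside 7 of them (TAF1D with 8, NOP56 and GNL3 with 5 each, NOP58 with 4, NCL and WDR43 with 3 each and DKC1 with 2), which is 18.4% of the 38 against 1.64% of all genes tested. Of the 30 snoRNA genes, 1 was at 0 in every library and no snoRNA exceeded 155 counts in a library.

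Promoters were read from a RefSeq table (GRCh38.p14) that matched 32 of the 38 genes (without BOP1, NOLC1, NOP58, POLR1E, RRP12 and RRS1), as the 250 bases before the first listed start of each gene, on both strands. The E-box CACGTG, the letters bound by MYC and related factors, was in 2 of the 32 (6.25%) and in 8.99% of 10724 promoters of genes tested. The ETS core CCGGAAG was in 10 (31.2%) against 16.0%, and the GC box GGGCGG in 24 (75%) against 67.6%. None of these motifs contains another. The windows around the ETS core are shown for the 3 genes with 2-fold rises that hold it (capitals), and around the E-box for UTP4 and UTP20, both of the genes that hold it.
TAF1D, chr11:93741529-93741585 (- strand): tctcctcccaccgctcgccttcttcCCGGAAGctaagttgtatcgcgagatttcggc
RRP9, chr3:51942104-51942154 (- strand): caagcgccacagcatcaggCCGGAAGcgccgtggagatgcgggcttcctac
DDX21, chr10:68956085-68956141 (+ strand): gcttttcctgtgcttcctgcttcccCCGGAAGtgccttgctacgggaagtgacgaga
UTP4, chr16:69132608-69132648 (+ strand): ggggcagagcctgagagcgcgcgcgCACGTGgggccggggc
UTP20, chr12:101280070-101280104 (+ strand): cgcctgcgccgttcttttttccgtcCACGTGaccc
The motif begins 65 bases before the start of TAF1D, 231 before that of RRP9, 60 before that of DDX21, 16 before that of UTP4 and 10 before that of UTP20. Of the 10 genes with the ETS core, 9 rose and FBL did not pass, where 23 of the 32 genes with a promoter rose. Of the 2 genes with the E-box, UTP4 rose by 0.81 and UTP20 had a fall, with a log2 fold change of -0.23. A match is a description of the letters and not of a bound site. The precursor and mature ribosomal RNAs that these proteins make were not analysed here.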

How the data were processed

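MIA PaCa-2 cells, untreated or given rhCYGB, were profiled by paired-end RNA-seq (TruSeq Stranded mRNA kit, NovaSeq), with 3 libraries per group, grouped by their labels. The authors checked reads with FastQC 0.11.7, mapped trimmed reads with HISAT2 2.1.0 and assembled transcripts with StringTie 2.1.3b. Read counts per gene and per transcript were deposited by the authors without normalization. The deposited FPKM values are scaled to transcript length and mapped reads, and were used for levels and as an alternative. The TPM columns deposited by the authors, 6 per table, were not used. The processing notes name mm10, a mouse build, for these human libraries, while the gene positions they deposited differ from GRCh38, so file positions are given without a build.

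edgeR 4.0.16 (R 4.3.3) was run on all 35993 genes with filterByExpr, TMM factors, a quasi-likelihood test (two-sided) on all 6 libraries and Benjamini-Hochberg adjustment over 14728 genes, with a threshold of 0.05. Transcripts were tested in the same way. The scripts were tested on simulated counts. limma 3.58.1 and DESeq2 1.42.0 served as alternatives. Depth allowed a floor (3 counts) of 0.0669 to 0.0902 CPM, which covers counting error only.

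The 38 genes, the lists of other pathway genes and markers, and the tests were chosen with earlier results of these data known. Named by rule were the RNA polymerase I and snoRNP core genes, the phosphoproteins, the 5 largest rises and falls, and, of the other pathway genes, the 5 largest rises and falls with at least 100 counts per library in the higher group and all remaining polymerase I and SL1 subunits. Alternatives covered scaling, filter, test, unit, table, threshold, a replicate block and leaving out each library.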

Additional observations from a re-analysis of the deposited data

How the results depend on the processing

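All 38 genes were refitted under 17 settings. The direction and the side of the threshold held in 603 of 646 values and in every setting for 28 genes. The other 10 were FBL, HEATR1, MYBBP1A, NCL, NOP16, NOP56, PES1, POLR1E, WDR12 and WDR75, all between -0.07 and 0.25 on the log2 scale in the main test. Scaling had most effect, since upper-quartile factors, total counts and limma on FPKM centre the genes lower. The median log2 fold change of the 38 genes was 0.24 with upper-quartile factors, 0.22 with total counts, 0.22 with limma on log2(FPKM + 0.1), 0.21 on log2(FPKM + 1), 0.37 with DESeq2's size factors or Wald test and 0.36 with at least 10 counts in every library. The median of the other pathway genes was 0.12, 0.10, 0.11, 0.11, 0.25 and 0.25 in that order. Genes of the 38 called lower numbered 11 with total counts and with limma on either FPKM scale, and those higher by 2-fold or more numbered 3 in these and with upper-quartile factors. FBL turned to -0.090 with upper-quartile factors, -0.11 with total counts, -0.11 with log2(FPKM + 0.1) and -0.11 with log2(FPKM + 1), and MYBBP1A to -0.12, -0.14, -0.14 and -0.14. Neither passed with TMM. Leaving out each library in turn gave medians of 0.37 to 0.40 for the 38 genes and 0.26 to 0.29 for the other pathway genes, with 27 genes higher and 7 lower each time. MYBBP1A then ran from -0.0056 to 0.064 and NCL from -0.024 to 0.00059. The transcripts called numbered 47, and 36 to 42 without a library. The replicate numbers did not pair the samples (correlations of deviations -0.0479, 0.0072 and 0.0055), and with the replicate block 27 of the 38 genes rose and 7 fell, with 41 transcripts called. The lowest level of the 38 genes, 17.1 CPM for GAR1, is far above the floor of 3 counts, so depth did not limit the gene tests. How the assembler split shared reads limits the transcript values and was not tested.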

Other observations

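Transcript splits were uneven between libraries for some of the genes. In UBTF, variant 2 held 49.8, 56.7 and 77.1% of the UBTF count in the untreated libraries and 66.2, 68.6 and 30.6% in the rhCYGB libraries, so a single treated library differed from the others of its group. In POLR1B, variant 6 held 0, 39.6 and 38.1% in untreated and 26.9, 0 and 13.4% in treated libraries. The variants of both genes are among the 94 transcripts tested and the 81 compared by share.

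The snoRNA rows inside TAF1D had counts in every library. SNORA8 had 52, 77 and 62 counts in untreated and 155, 103 and 118 in treated cells, and SNORD5 had 12, 21 and 19 against 41, 47 and 47. SNORA18 had 39, 77 and 70 against 60, 51 and 69, with overlap. These rows were picked with their values in view and were not tested.

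Within NPM1, the noncoding variant 8 held 4.91, 4.74 and 3.87% of the count untreated and 2.06, 2.74 and 2.45% treated, and in NOB1 the noncoding variant held 2.1, 3.01 and 2.28% against 3.81, 4.66 and 7.94%. Both differed without overlap, with p = 0.1 in the exact permutation test, the smallest it allows.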
